A study of Mus musculus with 12 samples.

Results

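The genes of DNA replication and S phase were followed across 12 arrays of mouse bone marrow-derived dendritic cells (BMDCs). The set was a list of 51 genes: the subunits of the replication machinery, the enzymes that supply nucleotides, the factors that copy chromatin and DNA methylation marks, and the cyclins, kinase and E2F factors of the step from G1 into S phase. All 51 were measured, among 24232 named genes on the array, and each is represented by its brightest probe, taken as the mean over all arrays. Of the 51 genes, 32 had 1 probe and 19 had several. The genes fell into 10 role groups of 2 to 8 members.

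The arrays held 4 groups of 3, with the replicate letters A, B and C in each. DCYoung cells came from untreated mice of 2 months and DCDysbiotic cells from mice of 2 months that had received an antibiotic cocktail for 21 days. DCOld cells came from untreated mice of 24 months and DCOld-LP cells from mice of 24 months that had received *Lactobacillus plantarum* for 21 days. These ages are those of the labels, and the study's text gives ranges of age instead. All mice were C57BL/6 females, and bone marrow was pooled from 3 mice. All 4 groups shared the same culture: flushed marrow was grown with GM-CSF and IL-4, the loosely adherent cells were harvested, and these were stimulated with lipopolysaccharide (LPS, 1 µg/mL) for 24 hours before RNA was taken. The harvest was not sorted, so that each array read the RNA of a mixed culture, in which fewer cells of a type and less RNA per cell cannot be told apart. The comparisons ask how the age of the donor, an antibiotic course in young donors and *L. plantarum* in old donors moved with transcript levels in the cultured cells.

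DNA replication starts at origins that are marked by the origin recognition complex. Cdc6 and Cdt1 load the ring-shaped MCM helicase there during G1, and Mcm10, Cdc45 and the GINS complex turn it into a moving helicase at the start of S phase. Primase and the replicative polymerases then copy the strands behind it, held in place by the Pcna clamp. E2F factors switch many of these genes on as cells pass from G1 into S, so that their transcripts tend to mark dividing cells. Marrow precursors divide while they turn into dendritic cells, whereas mature dendritic cells divide little.

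The C arrays stood apart from the A and B arrays in every group. The share of spots well above background was 37.3% to 46.0% on C, against 61.2% to 66.4% on A and B, and the 75th percentile of spot intensity was 86.5 to 242 against 665 to 1180. The A and B arrays of all groups lay on slide 1, the C arrays of DCYoung and DCDysbiotic on slide 2, and those of DCOld and DCOld-LP on slide 3. The difference between DCOld and DCYoung on the C arrays was therefore also a difference between slides, and slide and group cannot be told apart there. Groups were compared within a letter, by a linear model with the letter as a block, and the values within each letter and without the C arrays stand beside the results. Levels are given as log2 of quantile-normalized spot intensity, and differences as log2 fold changes. The dendritic cell marker *Itgax* stood at 14.09 to 14.80 on all 12 arrays, and all 16 dendritic cell markers examined were well above background on 11 arrays and 15 of them on DCOld-LP C.

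Of the 51 genes, 43 were well above background on all 12 arrays and 50 on at least 1. *Ccne2*, a cyclin that activates Cdk2, was not well above background on any array, and the brighter probe of *Orc1*, the largest subunit of the origin recognition complex, on none of the DCOld arrays. The other *Orc1* probe was well above background on 7 arrays, 1 of them of DCOld, and gave -0.76 in DCOld against DCYoung (adjusted p = 0.356). No fold change is given for *Ccne2* in any comparison, nor for the brighter *Orc1* probe where DCOld is compared, although their fitted values stay in the counts of 51 below.

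Since E2F binding is a known feature of replication gene promoters, the start regions were searched for 4 words of the E2F motif on both strands, TTTCCCGC, TTTCGCGC, TTTGCCGC and TTTGGCGC, with overlapping matches counted. RefSeq windows of the mouse build GRCm38.p6, each with 250 bases before and 50 bases after an annotated start, were found for 42 of the 51 genes; *Mcm4*, *Gmnn*, *Gins1*, *Gins2*, *Gins4*, *Rfc2*, *Prim2*, *Pole* and *Ccne2* had none. At least 1 word stood in a window of 17 of the 42 genes (40.5%), against 704 of all 27025 genes with a window (2.60%). Words were found in 4 of 5 matched MCM genes (*Mcm3*, *Mcm5*, *Mcm6* and *Mcm7*), in *Orc1*, *Cdc6* and *Cdt1*, in 3 of 6 matched polymerase genes and in none of the 5 nucleotide supply genes. A match is a description of the letters and no evidence of binding. Windows of 5 genes are printed: *Cdc6*, *E2f2*, *Uhrf1* and *Rrm2* passed the test between DCOld and DCYoung, and *Mcm5* is the member of the MCM ring with the greatest difference. *Mcm10* passed too, and its window, not printed, held no whole word but ended on the start of TTTGGCGC. *E2f2* and *Uhrf1* had 2 windows each, of which the 1 with a word is printed. All 5 printed windows lie on the plus strand and run 5′ to 3′, and capitals mark the motif words. They span chr11:98907901-98908200 (*Cdc6*, first word base at -138 from the start), chr4:136172024-136172323 (*E2f2*, at 40), chr17:56304063-56304362 (*Uhrf1*, at -185), chr12:24708004-24708303 (*Rrm2*, no word) and chr8:75109259-75109558 (*Mcm5*, 2 overlapping words at -153 and -149).
Cdc6: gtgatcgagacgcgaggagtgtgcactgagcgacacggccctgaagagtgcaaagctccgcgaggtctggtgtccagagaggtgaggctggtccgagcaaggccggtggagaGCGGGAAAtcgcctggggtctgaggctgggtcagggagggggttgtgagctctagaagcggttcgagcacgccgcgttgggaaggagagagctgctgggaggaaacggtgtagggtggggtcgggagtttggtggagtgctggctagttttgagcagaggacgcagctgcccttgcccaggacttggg
E2f2: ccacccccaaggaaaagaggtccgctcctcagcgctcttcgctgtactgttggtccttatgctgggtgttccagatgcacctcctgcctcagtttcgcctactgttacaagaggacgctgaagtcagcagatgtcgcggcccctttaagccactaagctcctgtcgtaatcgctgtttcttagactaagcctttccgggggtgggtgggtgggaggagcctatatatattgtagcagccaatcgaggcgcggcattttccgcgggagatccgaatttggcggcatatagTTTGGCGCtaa
Uhrf1: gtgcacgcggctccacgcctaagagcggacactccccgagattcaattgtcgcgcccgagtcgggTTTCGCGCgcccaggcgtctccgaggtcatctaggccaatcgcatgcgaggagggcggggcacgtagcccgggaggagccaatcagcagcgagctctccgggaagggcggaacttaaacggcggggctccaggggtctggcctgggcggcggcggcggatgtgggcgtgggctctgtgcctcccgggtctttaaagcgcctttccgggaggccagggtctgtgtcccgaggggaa
Rrm2: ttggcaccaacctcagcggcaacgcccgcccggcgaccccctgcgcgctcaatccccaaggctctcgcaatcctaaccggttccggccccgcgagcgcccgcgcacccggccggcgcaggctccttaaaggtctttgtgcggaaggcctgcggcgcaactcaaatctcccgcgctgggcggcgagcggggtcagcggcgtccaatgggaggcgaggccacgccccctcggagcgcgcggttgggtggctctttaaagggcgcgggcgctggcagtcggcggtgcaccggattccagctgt
Mcm5: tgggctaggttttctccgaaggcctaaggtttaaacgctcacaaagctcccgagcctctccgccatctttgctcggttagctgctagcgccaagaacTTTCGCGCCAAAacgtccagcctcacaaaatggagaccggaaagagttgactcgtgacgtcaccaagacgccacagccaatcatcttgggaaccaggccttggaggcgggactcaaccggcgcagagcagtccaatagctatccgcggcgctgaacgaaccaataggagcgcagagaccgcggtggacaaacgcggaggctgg

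In cells from old donors, 6 replication genes were lower than in cells from young donors and none was higher. *Cdc6* and *Mcm10*, which act at the origin, *Pole*, the catalytic subunit of the leading-strand polymerase, *Rrm2*, the small subunit of ribonucleotide reductase, *Uhrf1*, which recruits the maintenance DNA methyltransferase to newly copied DNA, and the transcription factor *E2f2* fell 1.98-fold to 2.32-fold in DCOld. A gene was called when its limma p-value, adjusted by Benjamini-Hochberg over all 56605 probes, was at most 0.05 and its log2 fold change at least 0.5 in size. The background share called lower in DCOld was 0.979% of all probes and 1.42% of named genes, so that 6 of 51 was above it. The other 45 genes did not pass. Across the whole set, 45 of 51 fitted differences lay below 0 (88.2%, against 49.7% of named genes), 13 lay at or below -0.5 (25.5% against 12.9%), and the median was -0.36, where the median of all named genes was 0. With *Orc1* and *Ccne2* left out, 44 of 49 lay below 0 and the median was -0.37. The median of the differences was -0.54 between the A arrays, -0.44 between the B arrays and -0.14 between the C arrays. DCOld was lower on A, B and C for 34 of 51 genes, against 19.5% of named genes, and its 3 arrays did not overlap those of DCYoung for 9 genes, against 10.7% of named genes. The calls rested on the letter block and on few arrays. The 6 calls became 0 in the fit without the block, where 0.171% of all probes were called lower and the lowest limma adjusted p of the 51 genes was 0.109. In that fit limma's unadjusted p was at most 0.05 for 9 genes, and no share of all probes at that p was taken. The A and B arrays alone gave 17 genes, against a background of 4.28%, all counts of calls being of lower calls. Without 1 array at a time, the count was 0 without DCYoung A, DCYoung B, DCDysbiotic A, DCDysbiotic B, DCOld A, DCOld B or DCOld-LP A. It was 1 without DCOld-LP B (0.546% of all probes called lower) and 3 without DCYoung C (0.652%). It was 4 without DCDysbiotic C (0.843%), 7 without DCOld-LP C (1.31%) and 10 without DCOld C (1.83%).

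**Figure D1:**
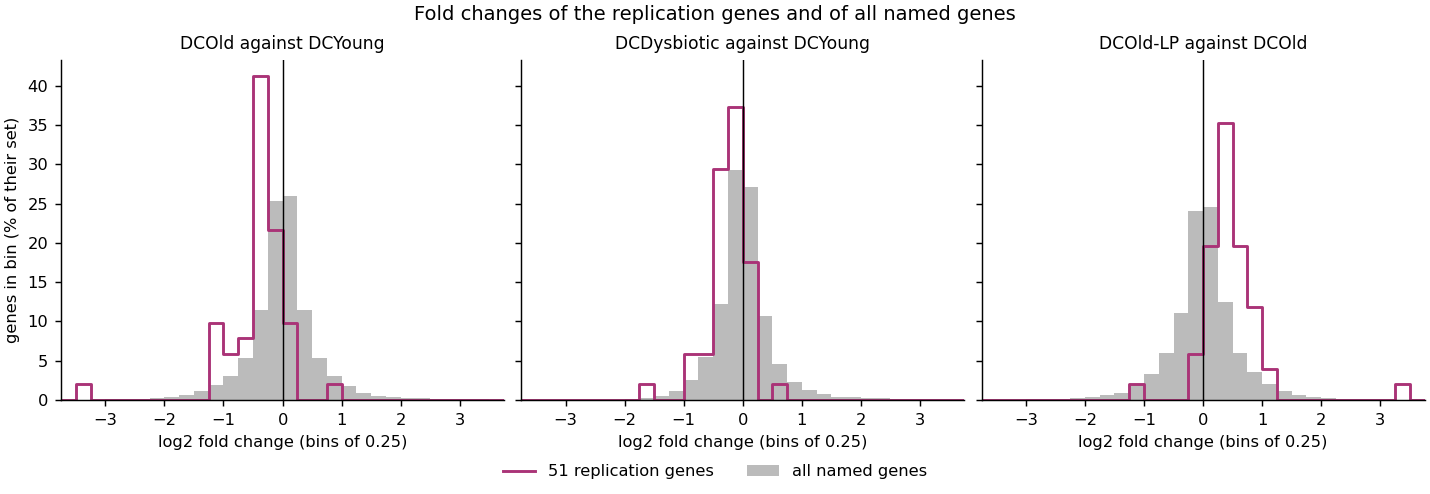
Distribution of log2 fold changes in bins of 0.25 for the 51 replication genes (step line) and for all named genes (grey bars), each as a percentage of its own set, in the 3 main comparisons. The replication genes lie mostly to the left of 0 in DCOld against DCYoung (88.2% below 0) and mostly to the right in DCOld-LP against DCOld (92.2% above 0), where the named genes are centred near 0.

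At the origin, *Cdc6* was the gene that fell. This ATPase brings the MCM ring to the origin. Its levels on arrays A, B and C were 7.32, 7.28 and 7.02 in DCYoung, 6.77, 6.67 and 6.21 in DCDysbiotic, 6.42, 6.42 and 5.13 in DCOld, and 7.15, 7.01 and 6.59 in DCOld-LP. The DCOld arrays lay below those of DCYoung and of DCOld-LP with no overlap, and DCOld C, the lowest, was the only array of the 12 on which the probe was not well above background. The difference between DCOld and DCYoung was -1.22 (95% interval -1.71 to -0.72, limma adjusted p = 0.0305). *Cdt1*, the partner of Cdc6 in loading and the brightest probe of this group, stood at 11.20, 11.18 and 10.97 in DCYoung, 10.91, 10.80 and 11.04 in DCDysbiotic, 10.67, 10.83 and 10.93 in DCOld, and 10.77, 10.96 and 11.45 in DCOld-LP. Its DCOld arrays lay just below those of DCYoung, and the difference of -0.31 (-0.73 to 0.12, adjusted p = 0.564) was not called. *Gmnn*, the inhibitor of Cdt1, differed by -0.44 (adjusted p = 0.266), and *Orc2* and *Orc6* by -0.19 and -0.24.

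None of the 6 MCM ring subunits was called in any comparison, although all 6 differences between DCOld and DCYoung lay below 0, from -0.86 (*Mcm5*) to -0.27 (*Mcm3*), with a median of -0.37. *Mcm6*, the brightest probe of the ring, stood at 12.75, 12.68 and 13.62 in DCYoung, 12.27, 12.19 and 13.29 in DCDysbiotic, 11.89, 12.15 and 13.52 in DCOld, and 12.34, 12.33 and 13.63 in DCOld-LP. On A and B the lowest array was that of DCOld and on C that of DCDysbiotic, and the difference was -0.49 (-0.87 to -0.12, adjusted p = 0.242). *Mcm5*, shown because it had the greatest difference of the ring and so chosen after its values were seen, stood at 10.36, 10.49 and 10.50 in DCYoung, 9.49, 9.58 and 9.91 in DCDysbiotic, 9.10, 9.38 and 10.30 in DCOld, and 10.34, 10.21 and 10.59 in DCOld-LP. The DCOld arrays did not overlap those of DCYoung, with a gap of -1.26 on A, -1.11 on B and -0.20 on C. The adjusted p was 0.109 with the letter as block and 0.0433 with the slide as block.

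Among the genes that turn the loaded ring into a helicase, *Mcm10* fell. Mcm10 is needed for the start of unwinding. Its levels were 9.0, 8.79 and 9.39 in DCYoung, 7.95, 7.80 and 8.66 in DCDysbiotic, 7.42, 7.55 and 8.85 in DCOld, and 8.52, 8.54 and 9.46 in DCOld-LP. DCOld was the lowest group on A and B, DCDysbiotic the lowest on C, and DCOld C lay above DCYoung B. The difference between DCOld and DCYoung was -1.12 (-1.57 to -0.67, adjusted p = 0.0285). *Gins3*, the GINS subunit with the brightest probe, stood at 12.30, 12.24 and 10.14 in DCYoung, 12.45, 12.40 and 9.96 in DCDysbiotic, 12.41, 12.36 and 9.96 in DCOld, and 12.29, 12.24 and 10.03 in DCOld-LP. Its groups lay close together on every letter, with a difference of 0.02 (-0.28 to 0.31) between DCOld and DCYoung. The other GINS subunits, *Gins1*, *Gins2* and *Gins4*, differed by -0.47, -0.69 and -0.20 and *Cdc45* by -0.57, none of them called.

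**Figure D2:**
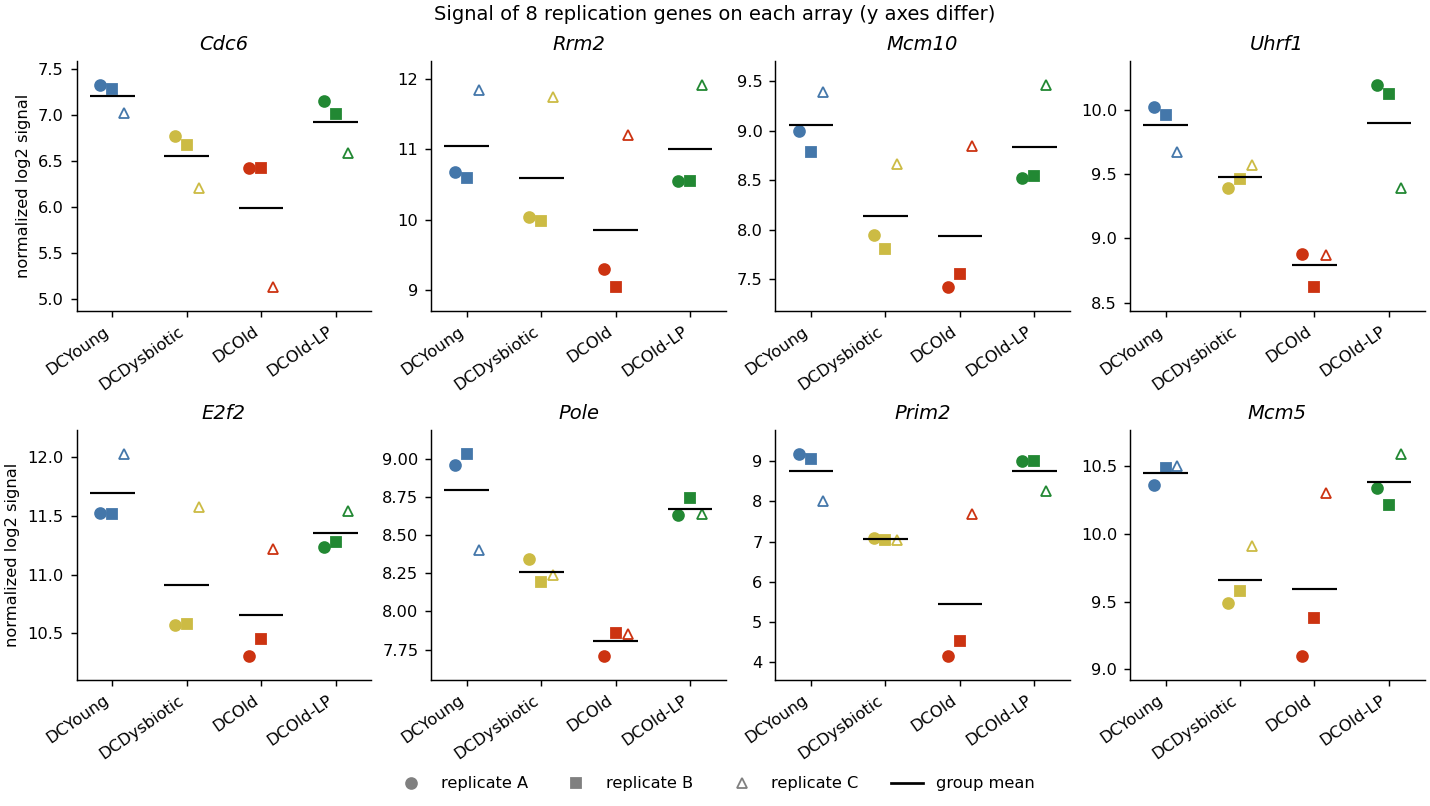
Level of 8 replication genes on each array (log2 of quantile-normalized intensity; scale differs between panels) in the 4 groups, with circles for A, squares for B, open triangles for C and a bar at the group mean. On the A and B arrays of each gene DCOld is the lowest group, whereas the C arrays often lie far from A and B, as for *Rrm2*, and Prim2 in DCOld stands at 4.16 and 4.52 on A and B and at 7.69 on C.

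The polymerase and primase genes held the gene with the greatest difference of the set and 1 call. *Pole* stood at 8.96, 9.03 and 8.40 in DCYoung, 8.34, 8.19 and 8.24 in DCDysbiotic, 7.71, 7.86 and 7.85 in DCOld, and 8.63, 8.74 and 8.64 in DCOld-LP. The C arrays lay close to A and B for this gene, and the DCOld arrays lay below all arrays of the other 3 groups. The difference from DCYoung was -0.99 (-1.39 to -0.59, adjusted p = 0.0289). *Prim2*, the large subunit of primase, is given because of its size and was chosen after its values were seen. It stood at 9.18, 9.05 and 8.01 in DCYoung, 7.10, 7.03 and 7.04 in DCDysbiotic, 4.16, 4.52 and 7.69 in DCOld, and 9.0, 9.01 and 8.26 in DCOld-LP. The difference between DCOld and DCYoung was -5.03 on A and -4.53 on B but -0.32 on C, so that the fitted difference of -3.29 had an interval of -5.26 to -1.33 and an adjusted p of 0.122 with the letter block and 0.0489 with the slide block. The probe was well above background on all 12 arrays. *Prim1*, the catalytic subunit of primase, differed by -0.80 (adjusted p = 0.113). *Pold1*, the catalytic subunit of the lagging-strand polymerase and the brightest probe here, stood at 10.57, 10.56 and 10.95 in DCYoung, 10.18, 10.05 and 10.59 in DCDysbiotic, 9.84, 10.15 and 10.93 in DCOld, and 10.54, 10.46 and 10.72 in DCOld-LP, with groups that overlapped and a difference of -0.39 (-0.81 to 0.03). *Pold2*, its accessory subunit, differed by 0.01, and *Pola1*, *Pola2* and *Pole2* by -0.21, -0.32 and -0.44.

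The clamp, its loader and the genes that bind and join the new strands showed smaller differences and no calls. *Pcna*, the sliding clamp, stood at 13.15, 13.11 and 14.53 in DCYoung, 13.14, 13.18 and 14.48 in DCDysbiotic, 13.06, 12.67 and 14.37 in DCOld, and 13.26, 13.23 and 14.27 in DCOld-LP. The 4 groups overlapped, and the difference between DCOld and DCYoung was -0.23 (-0.59 to 0.13, adjusted p = 0.605). The 5 *Rfc* genes, which encode the clamp loader, differed by -0.40 (*Rfc4*) to 0 (*Rfc2*). *Fen1*, the nuclease that trims Okazaki fragments, stood at 11.56, 11.47 and 10.29 in DCYoung, 11.10, 11.09 and 10.81 in DCDysbiotic, 10.94, 11.12 and 10.16 in DCOld, and 11.26, 11.31 and 11.35 in DCOld-LP. Its groups overlapped, with a difference of -0.37 (-0.98 to 0.25), and *Lig1*, the ligase that joins the fragments, differed by -0.35 (-0.66 to -0.04, adjusted p = 0.326). *Rpa3*, a subunit of the complex that coats single strands, stood at 10.87, 10.78 and 11.97 in DCYoung, 11.20, 11.12 and 12.04 in DCDysbiotic, 11.03, 10.70 and 11.74 in DCOld, and 11.07, 11.18 and 11.42 in DCOld-LP. These groups also overlapped, and the 3 *Rpa* genes had a median difference of -0.05, the closest to 0 of the 10 role groups.

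Of the genes that supply nucleotides, *Rrm2* fell in DCOld and was the gene of the set with the lowest adjusted p. Rrm2 carries the radical that ribonucleotide reductase needs, and its level normally peaks in S phase. It stood at 10.68, 10.59 and 11.85 in DCYoung, 10.04, 9.98 and 11.75 in DCDysbiotic, 9.30, 9.04 and 11.20 in DCOld, and 10.55, 10.55 and 11.91 in DCOld-LP. DCOld was the lowest group on each letter, but DCOld C lay above the A and B arrays of DCYoung, so that the groups overlapped when letters were not matched. The difference was -1.19 (-1.64 to -0.75, adjusted p = 0.0208), made up of -1.38 on A, -1.55 on B and -0.65 on C. *Tyms* and *Tk1*, which make thymidine nucleotides, differed by -0.56 and -0.55, *Rrm1*, the large subunit of the reductase, by -0.29 and *Dut* by -0.18, and none of these was called.

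Among the genes that copy chromatin and methylation marks, *Uhrf1* fell and its partner *Dnmt1* differed by 0.04 (-0.38 to 0.46). *Uhrf1* stood at 10.02, 9.96 and 9.67 in DCYoung, 9.39, 9.46 and 9.57 in DCDysbiotic, 8.88, 8.62 and 8.87 in DCOld, and 10.19, 10.12 and 9.39 in DCOld-LP. All 3 DCOld arrays lay below every other array. The difference from DCYoung was -1.10 (-1.59 to -0.60, adjusted p = 0.0459 with the letter block and 0.0638 with the slide block). *Chaf1b*, a subunit of the histone chaperone that loads new nucleosomes and the brightest probe of this group, stood at 10.46, 10.46 and 11.17 in DCYoung, 10.31, 10.10 and 10.91 in DCDysbiotic, 10.09, 10.08 and 11.19 in DCOld, and 10.16, 10.10 and 11.38 in DCOld-LP. Its groups overlapped, and the differences were -0.24 for *Chaf1b* and -0.40 for *Chaf1a*, its large partner.

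In the control of the G1/S step, *E2f2* fell and *E2f1* differed by -0.06 (-0.46 to 0.33). Both encode activating E2F factors. *E2f2* stood at 11.53, 11.52 and 12.03 in DCYoung, 10.57, 10.58 and 11.58 in DCDysbiotic, 10.31, 10.45 and 11.22 in DCOld, and 11.24, 11.28 and 11.54 in DCOld-LP. The DCOld arrays lay below those of DCYoung and, by a narrow margin, below those of DCOld-LP, with no overlap. The difference from DCYoung was -1.03 (-1.43 to -0.63, adjusted p = 0.0252). *Ccne1*, the cyclin that starts S phase with Cdk2, differed by -0.42 (adjusted p = 0.353) and *Cdk2* by -0.41 (adjusted p = 0.420).

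**Figure D3:**
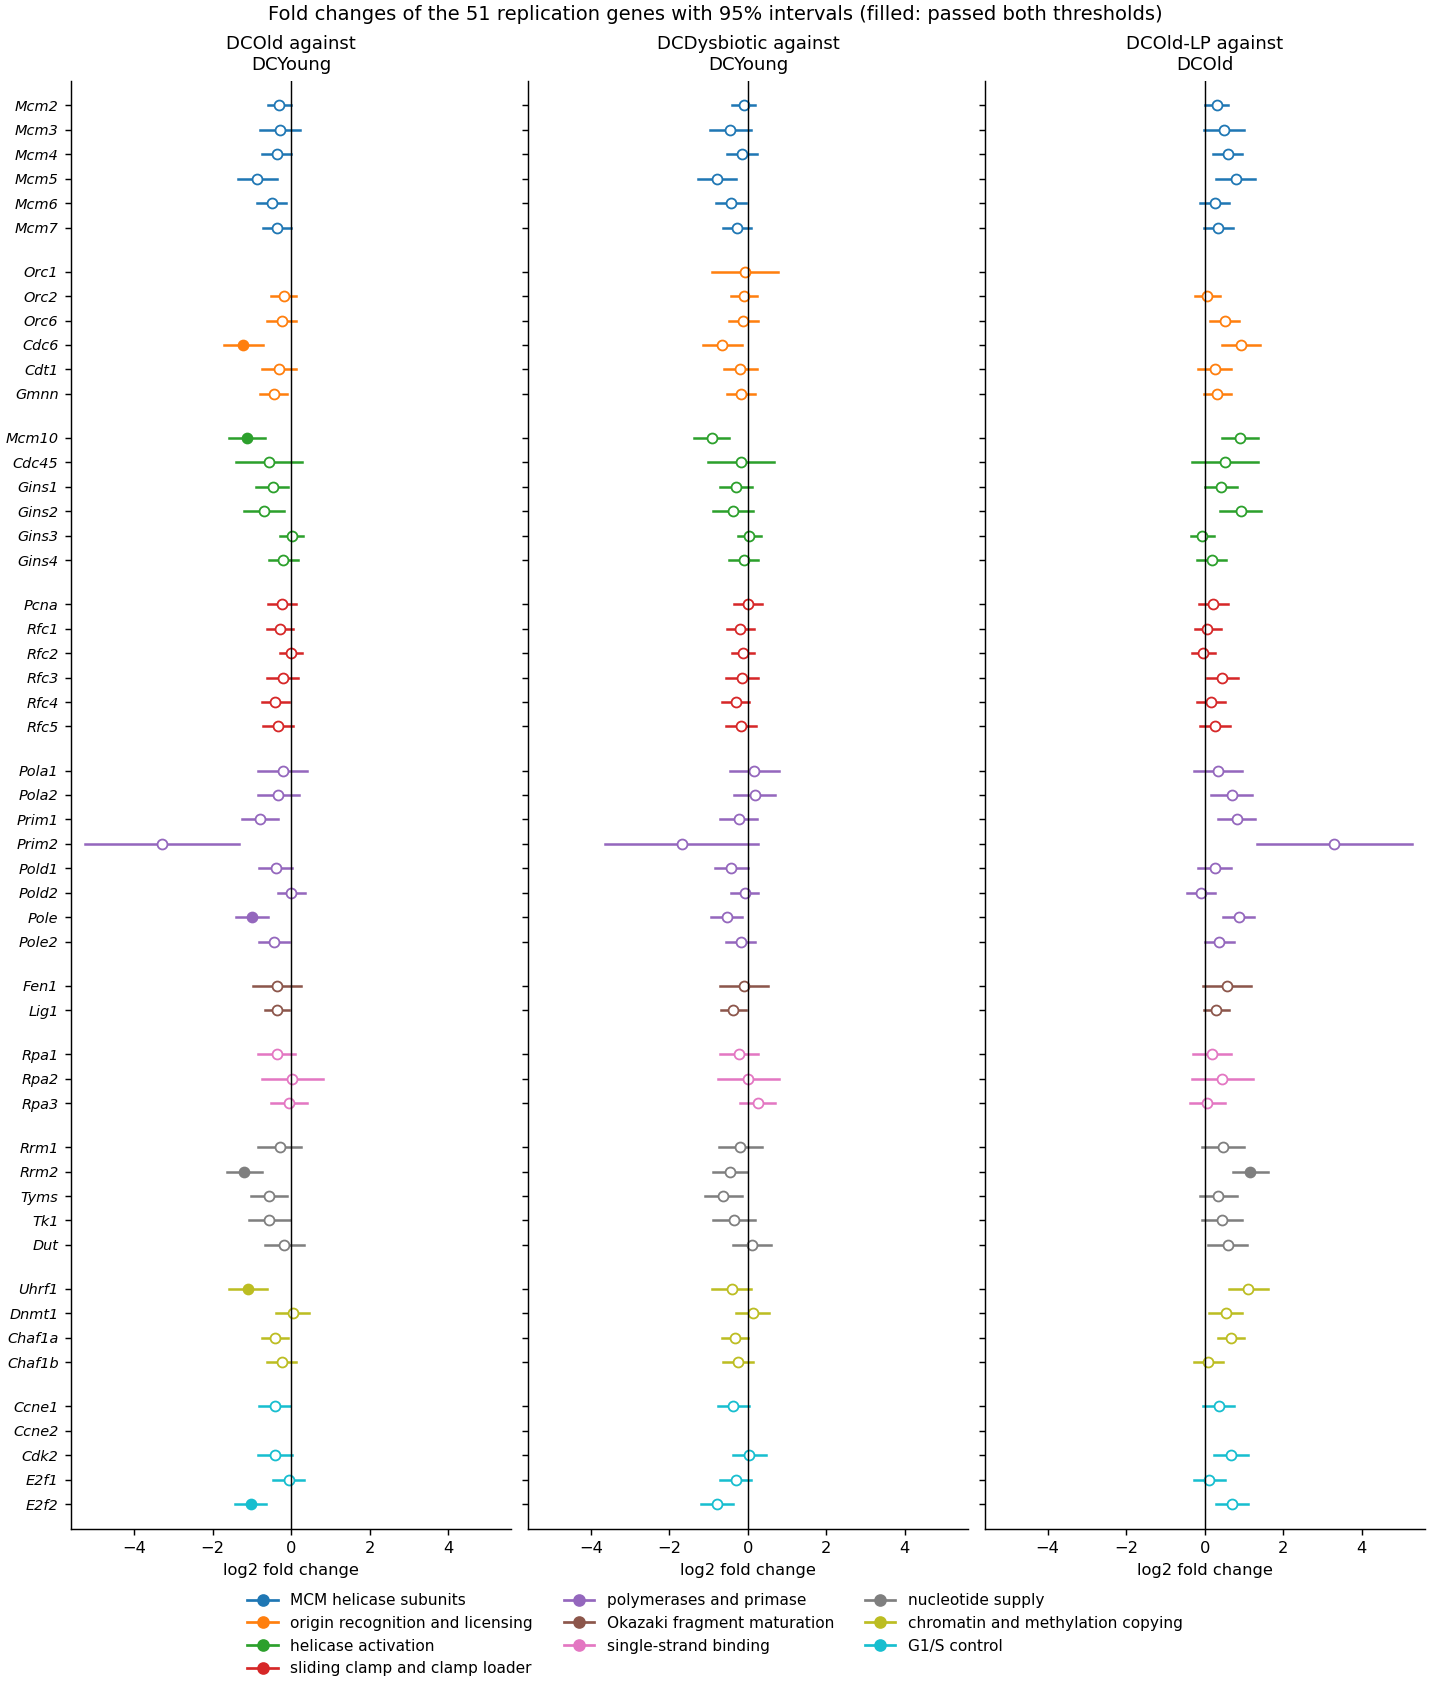
Log2 fold change with 95% interval of each replication gene, ordered by role, in the 3 main comparisons; filled points passed both thresholds, and *Ccne2* and, in the comparisons with DCOld, *Orc1* are not drawn. Most points lie left of 0 in DCOld against DCYoung and right of 0 in DCOld-LP against DCOld, with 6 and 1 filled points.

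Antibiotic treatment of young donors gave no call among the 51 genes, against a background of 0.984% of all probes called either way and 0.168% called lower. The limma p-value before adjustment was at most 0.05 for 10 genes (19.6%, against 11% of named genes). Of the fitted differences between DCDysbiotic and DCYoung, 41 of 51 lay below 0 (80.4%, against 51.6% of named genes), with a median of -0.19, and DCDysbiotic was lower on all letters for 28 genes, against 22.7% of named genes. The arrays of the groups did not overlap for 8 genes, against 10.7% of named genes. *Mcm10* came nearest to a call, with a difference of -0.92 (-1.37 to -0.47, adjusted p = 0.0978): the gap was -1.05 on A, -0.98 on B and -0.73 on C, and all 3 DCDysbiotic arrays lay below those of DCYoung. With the slide as block it passed, at an adjusted p of 0.0197, as the 1 call among 51 (background called lower 0.572%). *E2f2* differed by -0.79 (adjusted p = 0.115), *Mcm5* by -0.79 (0.209) and *Cdc6* by -0.65 (0.334). The MCM ring had a median of -0.35 and was lower on all letters for all 6 subunits. *Pcna* differed by 0.00 (-0.36 to 0.36). The A and B arrays alone called 8 genes lower, against a background of 2.26% of probes, and the fit without DCOld C, which feeds the shared spread, called 4 (0.899% of all probes called lower).

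**Figure D4:**
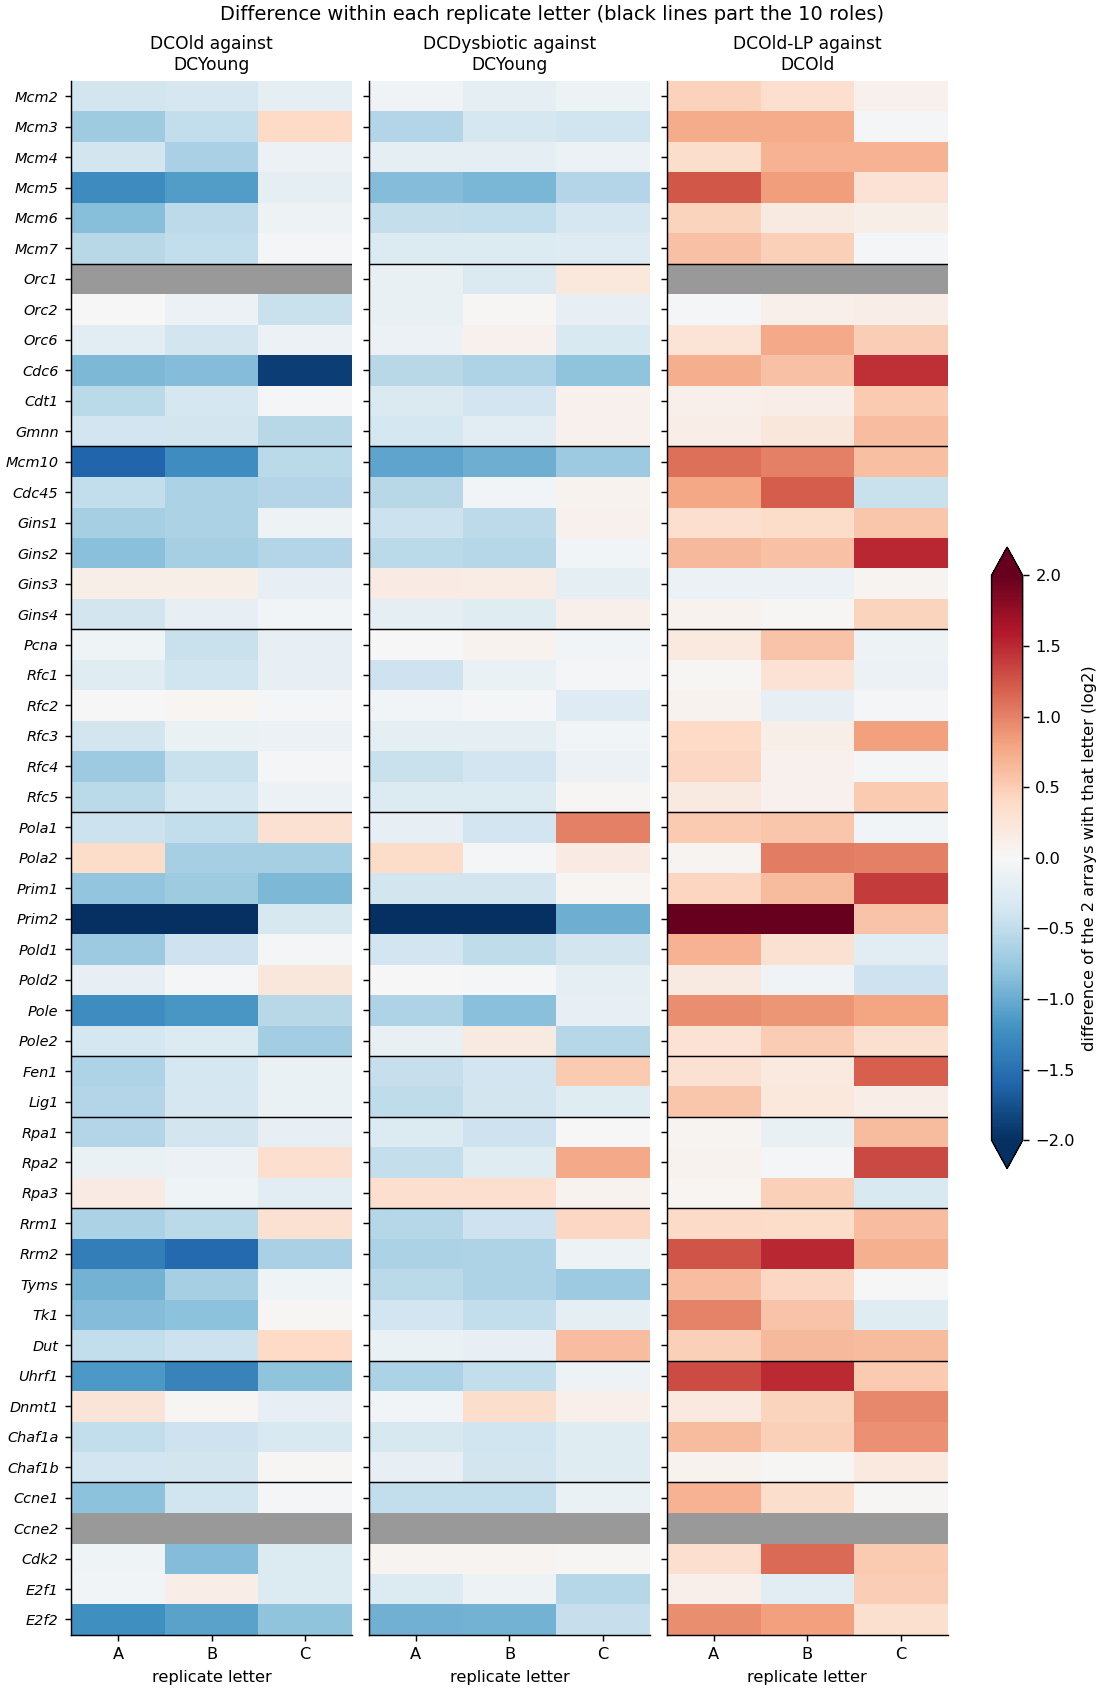
Difference between groups within each replicate letter for every replication gene, as colour from -2 (lower) to 2 (higher) on the log2 scale, with grey where no fold is given. The A and B columns resemble each other in each comparison, and in DCOld against DCYoung the C column is paler, with a median of -0.14 against -0.54 on A and -0.44 on B.

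In old donors that had received *L. plantarum*, *Rrm2* rose by 1.16 on the log2 scale over untreated old donors (0.71 to 1.6, 2.23-fold, adjusted p = 0.0293), higher on A by 1.25, on B by 1.51 and on C by 0.71. It was the 1 gene called of 51, and the background called higher was 0.783% of all probes and 1.18% of named genes. This comparison shares the DCOld arrays with the one above, so that arrays on which DCOld was low give a difference in both. Of the 51 differences, 47 lay above 0 (92.2%, against 51.2% of named genes), 19 at or above 0.5 (37.3% against 14.2%), and the median was 0.41, made of 0.40 on A, 0.44 on B and 0.49 on C. DCOld-LP was higher on all letters for 32 genes, against 18.2% of named genes, and its arrays did not overlap those of DCOld for 12, against 10.5% of named genes. *Uhrf1* (1.11, adjusted p = 0.0521), *Pole* (0.87, 0.0587), *Mcm10* (0.90, 0.0785), *Chaf1a* (0.67, 0.0786) and *Cdc6* (0.93, 0.102) came nearest to the threshold without passing. With the slide as block these 5 passed along with *Rrm2* and *Mcm4*, which made 7 calls (background called higher 1.75%). The arrays of both groups lay on the same slides for each letter. *Prim2* was higher by 4.84 on A, 4.50 on B and 0.57 on C (fitted 3.30, adjusted p = 0.139). The polymerase group had a median of 0.53 and the chromatin group of 0.60, while *Gins3* (-0.06), *Rfc2* (-0.04) and *Pold2* (-0.10) lay below 0.

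The count of 1 for DCOld-LP against DCOld depended on single arrays and on the block. It was 0 without the block, where 0.120% of all probes were called higher. In that fit limma's unadjusted p was at most 0.05 for 9 genes, and no share of all probes at that p was taken. The A and B arrays alone called 14 genes higher, against a background of 3.81%. Without DCOld C the count was 7 (1.65% of all probes called higher), without DCYoung C or DCOld-LP C it was 2 (0.776% and 0.571%), and without any of the other 9 arrays it was 0, so that the call of *Rrm2* was lost in these.

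No replication gene was called between DCOld-LP and DCYoung (0 of 51, background 0.00177% of probes either way). The differences ran from -0.34 to 0.57, with a median of -0.04, and 1 gene, *Dnmt1*, had an unadjusted p of at most 0.05 (1.96%, against 2.89% of named genes). For 19 of the 51 genes the 95% interval lay within 0.5 of 0 on either side, and for the other 32 it reached beyond, so that differences of that size were not excluded there. For the 6 genes that fell in DCOld, the values were -0.04 for *Rrm2* (-0.48 to 0.41), 0.01 for *Uhrf1* (-0.48 to 0.50), -0.12 for *Pole* (-0.52 to 0.27), -0.22 for *Mcm10* (-0.67 to 0.23), -0.29 for *Cdc6* (-0.78 to 0.21) and -0.34 for *E2f2* (-0.74 to 0.06). DCOld-LP against DCDysbiotic gave 0 calls (background 0.588%), 10 genes at an unadjusted p of at most 0.05 (19.6%, against 10.0% of named genes) and a median of 0.26. DCOld against DCDysbiotic gave 0 calls (background 0.00177%), 6 genes at that p (11.8%, against 4.70% of named genes) and a median of -0.12. Within letters, DCOld was the lowest of the 4 groups for 40 of 51 genes on A, 37 on B and 23 on C.

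A second reading of the same transcripts was open for the 19 genes with further probes. These gave 20 further probes, of which 19 had the same sign as the brightest in DCOld against DCYoung, 17 in DCDysbiotic against DCYoung and 18 in DCOld-LP against DCOld. In DCOld against DCYoung the further probe of *E2f2* was also called (-0.85, adjusted p = 0.0441), while that of *Cdc6* was not (-1.19, adjusted p = 0.0850) and that of *Uhrf1* (-2.30, adjusted p = 0.116) was well above background on 3 arrays. The further probe of *Gins2* was called lower in DCOld (-0.98, adjusted p = 0.0134) and higher in DCOld-LP (0.87, adjusted p = 0.0283), where the brightest probe of the gene was not. *Rrm2*, *Mcm10* and *Pole* had 1 probe each.

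The differences can also be set against the E2F words. Between DCOld and DCYoung the median was -0.36 over the 17 genes with a word, 3 of them called, and -0.32 over the 25 without, 2 of them called. The called genes without a word in the windows searched were *Rrm2* and *Mcm10*, and *Pole* had no window.

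Other genes of the cell cycle are given as whole lists. Over all probes, 0.979% were called lower and 1.2% higher in DCOld against DCYoung. In DCOld-LP against DCOld 0.869% were called lower and 0.783% higher, and in DCDysbiotic against DCYoung 0.168% and 0.816%. Of 32 further replication fork and origin genes, *Cdc7*, the kinase that starts origin firing, *Dscc1*, which helps load the clamp, and *Top2a*, which untangles the copied strands, fell in DCOld against DCYoung (-1.07, -1.56 and -1.18, adjusted p = 0.0132, 0.0191 and 0.0155) and rose in DCOld-LP against DCOld (1.08, 1.36 and 1.22). *Dscc1* was well above background on 8 arrays only and stood at 3.26 on DCOld C, against 5.35 on DCYoung C. The medians of the list were -0.28 and 0.30. The 15 further nucleotide supply genes had medians of 0.06 and 0.03 in the same comparisons. None of 14 further chromatin assembly genes was called in either (medians -0.02 and 0.30). Of 29 further G1/S genes, *Cdkn2b*, an inhibitor of the kinases that act before S phase, rose in DCOld (1.11, adjusted p = 0.00794) and in DCDysbiotic (1.05, adjusted p = 0.0160) and fell in DCOld-LP against DCOld (-0.74, adjusted p = 0.0496). The genes of G2 and mitosis had the largest medians of these 5 lists: 7 of 21 fell in DCOld, among them *Kif23* (-2.73) and *Nusap1* (-1.52), with a list median of -0.99, and 7 rose in DCOld-LP over DCOld, with a median of 0.97. *Kif23* was well above background on 9 arrays. Its levels on A, B and C were 6.83, 6.91 and 6.02 in DCYoung and 5.23, 4.61 and 1.75 in DCOld, so that its size rests in part on a dim reading. None of the G2 and mitosis genes was called in DCDysbiotic against DCYoung, where the median was -0.54. Without the letter block, 2 genes of this list were called lower in DCOld and 1 higher in DCOld-LP, and 1 and 0 of the fork and origin genes. Of all probes, 0.171% and 0.12% were called in these directions in that fit.

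**Figure D5:**
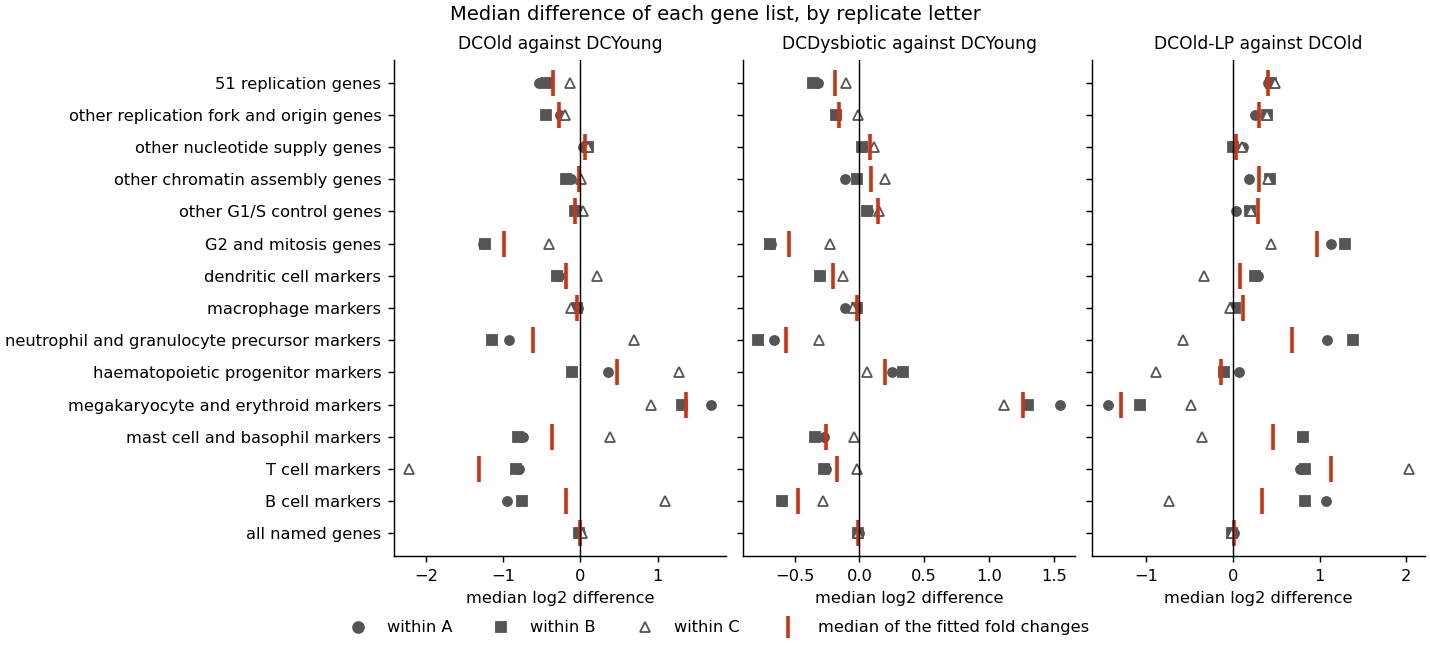
Median difference on the log2 scale of 15 gene lists within each replicate letter (points) and over the fitted fold changes (red tick), in the 3 main comparisons. The G2 and mitosis list lies farther from 0 than the replication genes in DCOld against DCYoung (medians -0.99 and -0.36), and the megakaryocyte and erythroid list lies on the opposite side (1.37).

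Markers of other cells that a marrow culture can hold also differed between the groups. Of 11 megakaryocyte and erythroid markers, 5 rose in DCOld against DCYoung (background called higher 1.2% of probes), among them the platelet genes *Itga2b* (2.44) and *Gp9* (2.36), the erythropoietin receptor *Epor* (2.05) and *Gata1* (1.61). In DCDysbiotic 4 rose (background 0.816%), and 5 fell in DCOld-LP against DCOld (background 0.869%). Without the letter block these counts were 2, 2 and 1 (background 0.449%, 0.33% and 0.228%). Their summed linear signal, to which *Pf4* (15.09 to 16.48 on the log2 scale) gave most on every array, was 56500 to 74900 in DCYoung, 85300 to 118000 in DCDysbiotic, 81100 to 121000 in DCOld and 60800 to 80800 in DCOld-LP. The erythroid genes *Alas2* and *Klf1* were well above background on 0 and 2 arrays. *Hba-a1*, an alpha-globin gene, was well above background on all 12 arrays and differed by -0.49 in DCOld against DCYoung (adjusted p = 0.400). Of 14 neutrophil and granulocyte precursor markers, *Camp* rose (2.71) and *Cebpe* fell (-0.78) in DCOld. The list median was -0.62, with -0.92 on A, -1.14 on B and 0.69 on C, and the sums were 28100 to 34300, 16500 to 25400, 12200 to 64400 and 31800 to 48800 in the same order of groups. Of 8 haematopoietic progenitor markers, *Meis1* rose in DCOld (1.45) and fell in DCOld-LP over DCOld (-1.14), with sums of 5240 to 8540, 8300 to 10800, 7750 to 15800 and 6150 to 10500, and *Mecom* was well above background on 0 arrays. Of 6 T cell markers none was called, with medians of -1.31 in DCOld against DCYoung and 1.13 in DCOld-LP against DCOld and sums of 15000 to 26200, 12400 to 24700, 5480 to 9110 and 13900 to 19700. Of 9 mast cell and basophil markers, *Ms4a2* rose in DCOld-LP over DCOld (1.00), with sums of 23700 to 48000, 19600 to 46700, 13900 to 61400 and 26500 to 41100. Of 12 macrophage markers, *Fcgr1* fell in DCOld (-1.24) and rose in DCOld-LP over DCOld (0.98), and none of 6 B cell markers was called in either. Of the 16 dendritic cell markers, *Cd86* fell (-0.59, adjusted p = 0.0493) and *H2-Ab1* rose (0.79, adjusted p = 0.0417) in DCOld against DCYoung, and none was called in DCOld-LP against DCOld. The levels of *H2-Aa* ran the other way from *H2-Ab1*, at 14.42, 14.80 and 15.35 in DCYoung and 13.31, 13.15 and 14.99 in DCOld. The 16 markers summed to 412000 to 457000 in DCYoung, 430000 to 478000 in DCDysbiotic, 430000 to 482000 in DCOld and 426000 to 449000 in DCOld-LP. Such a linear sum is carried mostly by the brightest genes, such as *Cd74* (16.78 to 17.19 on the log2 scale). The mean log2 level of the 16 was 12.48, 12.59 and 12.93 in DCYoung and 12.23, 12.23 and 13.08 in DCOld. It was thus lower in DCOld on A and B and higher on C. Called members of several of these lists differed between the same groups as the replication genes, and their part in the result was not tested.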

How the data were processed

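RNA of 12 BMDC samples was hybridised to 1-colour Agilent arrays, 1 array per sample. The authors scanned the arrays and deposited per-spot intensity, background-corrected by Agilent Feature Extraction (version 10.5 in the submitters' processing notes, 12.1.1.1 in the file headers, where the array's design names mm9), and the authors also deposited a table of normalized log2 values for 46302 probes, used only as an alternative.

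Here the processed signals of 59305 spots that were not controls were taken, 1068 outlier readings were set to missing, values were put on the log2 scale, quantile-normalized between arrays and averaged to 56605 probes. Of these probes, 35405 were named through the transcript accession and RefSeq, giving 24232 symbols. limma 3.58.1 in R 4.3.3 fitted group and replicate letter over all 12 arrays (lmFit, eBayes), with Benjamini-Hochberg adjustment over all probes of each comparison. Same-lettered arrays deviated together from their group means (r across probes 0.415 to 0.711), as did A with B (0.449 to 0.570), and C opposed both (-0.659 to -0.466). Deviations within a group cancel out, so that C arrays that stand apart bring such signs by themselves. The median was 0.517 for A with B, 0.511 for A with A and 0.483 for B with B. The letters thus mainly parted C from the rest. Nothing settles whether A and B are separate pools. A and B differed by more than spots of 1 array. The scaled median absolute deviation of the differences was 0.0974 to 0.142 over 284 probes, against 0.0517 to 0.0744. That does not tell separate pools from 1 pool hybridised again. The p-values measure only the spread between these arrays, whose number limits the precision.

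The genes and lists were chosen with earlier results of these data known. Values on every array are given for members called in a main comparison and for the brightest member of each role, and other genes by range, count or fold change. From the lists, at most 4 called genes each are named. Some listed genes are not reported here. *Impdh2*, *Ccnd1*, *Hbb-bs*, *Trac* and *Ighm* of the lists were not matched, and *Gata2* stands in both the progenitor and the mast cell list. Alternatives were no block, the slide as block, the 2 groups alone, a shift by the 75th percentile, normexp on the median signal (offset 50, in place of the mean signal first planned), the authors' log2 table, a filter on dim probes, outlier spots kept, the mean over probes, an intensity trend, unadjusted p-values, A and B alone, each array left out and, chosen after seeing the data, array weights. Figures were drawn with matplotlib 3.10.9 and pandas 2.3.3.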

Additional observations from a re-analysis of the deposited data

How the results depend on the processing

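Among the 51 genes, none that was called at its brightest probe changed direction under the alternatives run. Called genes of the other lists and further probes were not followed under these alternatives. The median in DCOld-LP against DCYoung, -0.04 as reported, changed sign with 1 array left out (-0.09 to 0.02). Over 24 settings that measured all 51 genes, 44 to 47 differences lay below 0 in DCOld against DCYoung, 40 to 45 below 0 in DCDysbiotic against DCYoung and 44 to 48 above 0 in DCOld-LP against DCOld. Percentages in brackets are shares of all features of a setting that were called either way. The count of called genes in DCOld against DCYoung (6 as reported, 2.18%) was 0 with no replicate block (0.62%). It was also 0 with the 2 groups alone, where no probe at all was called. On unadjusted p it was 12 (10.8%), on A and B alone 17 (8.23%) and with array weights, which were chosen after seeing the data, 20 (10.8%). With 1 array left out it was 0 to 10. It was 7 with the slide block (2.7%) and 9 with normexp (3.11%), the authors' table (4.08%) or the filter on dim probes (7.81%), which kept 47 of the 51 genes. In DCOld-LP against DCOld (1 as reported, 1.65%) it was 0 with no replicate block (0.348%) and with the 2 groups alone, where no probe was called. It was 2 with the percentile shift (1.69%) and 6 with the mean over probes (3.13%) or the trend (2.23%). It was 7 with the slide block (3.29%), 9 with the filter (6.8%) and 10 with normexp (2.68%) or the authors' table (3.46%). On unadjusted p it was 17 (10.4%), on A and B alone 14 (7.35%), with array weights 21 (8.76%) and with 1 array left out 0 to 7. In DCDysbiotic against DCYoung (0 as reported, 0.984%) it was 1 with the slide block (2.04%) and 2 with normexp (1.67%), the authors' table (2.23%), the filter (4.2%) or the trend (1.37%). The counts with the slide block and with the filter were near these shares. On unadjusted p it was 6 (7.83%), on A and B alone 8 (5.20%), with array weights 10 (11.3%) and with 1 array left out 0 to 4. In DCOld-LP against DCDysbiotic (0 as reported, 0.588%) it was 1 with normexp (1.22%) or the authors' table (1.6%) and 5 on unadjusted p (6.38%). On A and B alone it was 3 (3.61%), with array weights 7 (6.55%) and with 1 array left out 0 to 3. Unadjusted p gave 4 in DCOld against DCDysbiotic (3.62%) and 1 in DCOld-LP against DCYoung (2.58%), array weights gave 2 in the former (0.219%), and leaving out 1 array gave 0 in both.

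The replicate block decided the calls: the fit with no replicate block called 0 of the 6 genes, at adjusted p from 0.109 (*Pole*) to 1 (*Rrm2*). *Rrm2* in DCOld against DCYoung had adjusted p of 9.25e-05 to 1 over its alternatives. Medians moved by more than their spread between letters in DCOld against DCDysbiotic (-0.12 as reported, -0.20 with the slide block, -0.21 with array weights) and in DCOld-LP against DCOld (0.41 as reported, 0.31 with normexp, 0.30 with the authors' table). The same held with single arrays left out: in DCDysbiotic against DCYoung (-0.19) without DCYoung C, at -0.35, in DCOld-LP against DCDysbiotic (0.26) without DCOld-LP C, at 0.19, in DCOld against DCDysbiotic without DCOld C, at -0.20, and in DCOld-LP against DCOld without DCOld A, DCOld B, DCOld-LP B or DCOld-LP C, at 0.32 to 0.37. With 1 array left out, medians ran from -0.46 to -0.29 in DCOld against DCYoung, -0.35 to -0.15 in DCDysbiotic against DCYoung, 0.32 to 0.45 in DCOld-LP against DCOld, 0.19 to 0.28 in DCOld-LP against DCDysbiotic and -0.20 to -0.12 in DCOld against DCDysbiotic. The cause of these changes was not tested.

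The C arrays had less signal over background than A and B, and dim probes such as those of *Orc1* and *Cdc45* were read least well there.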
